A study of Mus musculus with 6 samples.

Results

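The Bcl2 family decides whether a lymphocyte keeps its mitochondria intact or dies by apoptosis, and 10 of its genes were followed here in mouse CD4+ T cells that had received a synthetic miR-155 oligonucleotide. The genes were chosen by symbol and role, not by a threshold on their values: the survival genes Bcl2, Bcl2l1 and Mcl1, the effectors Bax and Bak1, and the BH3-only genes Bcl2l11, Bid, Bad, Bbc3 and Pmaip1. Each was found as 1 row among the 13177 rows of the deposited table, so 10 of 10 were matched. The 6 libraries form 2 groups: 3 controls, labelled as zero hour (0 h), and 3 samples collected 8 h after transfection. The cells were isolated with magnetic beads and checked by flow cytometry, per the series' design text. Every sample in both groups carries the same treatment label, which names the oligonucleotide, and no 8 h sample without it is described, so time and exposure cannot be told apart. Strain, age and sex of the mice are not given in the labels, nor is whether replicates came from different animals or cultures, so p-values here reflect the spread among these libraries alone, and that spread may be technical. The descriptions of the 8 h samples say CD5+ where their cell type label says CD4+.

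In healthy T cells the survival proteins Bcl-2, Bcl-xL (from Bcl2l1) and Mcl-1 bind and hold in check the proteins that would open the outer mitochondrial membrane. Bax and Bak (from Bak1) form that opening. BH3-only proteins such as Bim (from Bcl2l11), Puma (from Bbc3) and Noxa (from Pmaip1) report stress or loss of growth factor by blocking the survival proteins or by engaging Bax and Bak directly. In CD4+ T cells the balance sets how long resting cells live on interleukin 7 and how quickly activated cells are removed.

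Total counts per library ran from 4564010 to 13675127, and the median row held 10 to 30 counts. Counts of the housekeeping genes Actb (1 to 5) and Gapdh (1 to 11) were very low in every library, which limits how far any row can be read as a gene's level. T cell markers were present, with the 8 matched of 11 summed as CPM (counts per 1000000, on library sizes scaled by edgeR's TMM method). The sums were 3359 to 19187 CPM in controls and 5089 to 12359 CPM at 8 h, but Cd4 itself had 5 to 10 counts in any library. Single T cell genes differed widely between controls. Lck had 14784 CPM in control 3 but 30.6 in control 1, and Cd3d 14700 CPM in control 2 but 239 in control 1. Markers of other cells were also found. The 8 cytotoxic and natural killer markers summed to 1320 to 4832 CPM in controls and 234 to 428 CPM at 8 h. The 8 myeloid markers summed to 23.4 to 86.3 CPM against 13.7 to 17.5 CPM, and 6 erythroid and platelet markers to 21.3 to 131 CPM against 2.75 to 11.1 CPM. The 6 B cell markers (26.7 to 86.9 against 38.8 to 147 CPM) and the 2 CD8 markers (7.56 to 38.4 against 11.4 to 60.7 CPM) overlapped between groups as sums. Of 5 tested B cell genes 1, Ms4a1, did not (2.74 to 3.75 against 29.998 to 43.2 CPM). Over all tested genes 5.72% had every 8 h library above the controls. EdgeR called 0 of these markers, beside 0% of all tested genes. DESeq2 called 1 of the 5 tested B cell genes, Ms4a1 (adjusted p = 0.0173), higher at 8 h. It called 3 of the 8 cytotoxic genes, Gzma, Prf1 and Klrb1c, lower at 8 h. Of those 8 genes, 6 had lower and 2 higher fitted values at 8 h. DESeq2 called 0 in the other marker sets, where it gave no adjusted p to the tested genes Lck, Adgre1 and Alas2. It called 6.06% of all genes given an adjusted p. Ms4a1, Gzma, Prf1 and Klrb1c are named for a DESeq2 call. As sums, the cytotoxic, myeloid and erythroid sets had no overlap between groups, but most of their tested genes overlapped when taken singly. Every 8 h library lay below every control in 2 of 8 tested cytotoxic genes (Gzma and Klrb1c). This held for 0 of 3 tested myeloid genes and 1 of 3 erythroid ones (Alas2), beside 5.08% of all tested genes. Single genes carried much of some sums, such as Adgre1 with 59.2 CPM in control 1 and Pf4 with 76.5 CPM in control 3. The part of these sets in the values below was not tested. In such bulk samples, fewer cells of a type and less RNA per cell cannot be told apart.

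Because the oligonucleotide is miR-155, the 3' untranslated regions of the family were searched for matches to the seed of miR-155-5p, the bases that pair with a target. The mature sequence and the 2 family matches that can be shown follow, with the seed or its match in capitals. The first is from RefSeq (GRCm38.p6, chromosome 16, 84714143 to 84714165, plus strand) and the others are from GENCODE M21 transcripts (GRCm38), written as DNA 5′ to 3′.
miR-155-5p: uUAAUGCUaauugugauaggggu
Bid: ctaaggagaacAGCATTAggagaggtgcat
Bcl2l11: tttatcccatcAGCATTAaagttgcccctg

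The match searched was AGCATTA on the transcript strand, called an 8-mer where an A follows. Bid had 1 7-mer at chromosome 6, 120893912 to 120893918 (minus strand), in a longest 3' untranslated region of 1670 bases. Bcl2l11 had an 8-mer at chromosome 2, 128129751 to 128129757 (plus strand), in another of its annotated 3' ends (1797 bases) but none in its longest one of 4218 bases. In the longest regions, 2 of 10 family genes held a match, Bid and Pmaip1 (2 8-mers in 2192 bases). Of the 6 members with enough counts for the test below, 1 held a match, Pmaip1, beside 7.64% of the 7941 tested genes with an annotated region. The median region of those genes was 990 bases, and 8 of the 10 members have a longer one. No match was found in Bcl2 (5086 bases), Mcl1 (2353 bases), Bak1 (1504 bases), Bcl2l1 (1477 bases), Bad (1026 bases), Bbc3 (971 bases) or Bax (224 bases). These are matches of letters, not tested sites.

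Bcl2, Bcl2l1, Bak1 and Bbc3 had higher mean levels in the 8 h libraries, Pmaip1 had a lower one, and the Bax means were nearly equal, but libraries of the same group differed so widely that no member passed the test. Of the 10 members 6 had enough counts to be tested, under an edgeR filter built on a minimum of 10 counts, and the 10 together held 397 to 4823 counts per library. EdgeR called 0 of the 6, with adjusted p between 0.832 and 0.997, and 0 had an unadjusted p under 0.05. Over all 8308 tested genes edgeR called 0%, and 8.53% had an unadjusted p under 0.05. DESeq2 called 0 of the 6 members, giving no adjusted p for Bcl2l1, against 6.06% of the 6588 genes for which it gave one. Of the tested members 5 had higher and 1 had lower fitted values at 8 h, with a median log2 fold change of 0.79, beside 0.06 for all tested genes, of which 51.3% were above 0. In 0 of the 6 did all libraries of 1 group lie above all of the other, while over all tested genes 5.72% had every 8 h library above and 5.08% every 8 h library below the controls. The SE of the members ranged from 1.14 to 1.82 on the log2 scale, beside a median of 1.71 for all tested genes. With errors of that size, these tests do not show that the genes were equal in the groups.

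Bcl2, which encodes the founding survival protein (chromosome 1, 106538176 to 106714290), was counted 16, 21 and 821 times in control replicates 1 to 3, against 1375, 897 and 118 times in 8 h replicates 1 to 3. On the CPM scale its levels were 2.86, 4.18 and 74.9 in the controls and 161, 67.5 and 17.1 at 8 h. Controls 1 and 2 were the lowest libraries and 8 h replicate 1 the highest, while control 3 lay above 2 of the 8 h libraries, so the groups overlapped. The means were 27.3 ± 41.2 CPM (SD, n = 3) and 82.0 ± 73.2 CPM (SD, n = 3). The log2 fold change was 1.58 ± 1.78 (SE), and edgeR's quasi-likelihood test gave an adjusted p (Benjamini-Hochberg) of 0.832. Leaving out control replicate 3 gave a log2 fold change of 4.56, and leaving out 8 h replicate 1 gave 0.62.

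Bcl2l1, the source of Bcl-xL (chromosome 2, 152758732 to 152833803), was scarce, counted 11, 7 and 4 times in control replicates 1 to 3, against 34, 10 and 4 times at 8 h. Its levels were 1.97, 1.39 and 0.365 CPM in controls and 3.99, 0.753 and 0.580 CPM at 8 h. Replicate 3 was the lowest library in each group, and 8 h replicate 1 stood above all the others. The log2 fold change was 0.53 ± 1.14 (SE; edgeR adjusted p = 0.928), and 0.09 without control replicate 3.

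Mcl1, whose short-lived protein T cells need to survive (chromosome 3, 95656944 to 95663179), was counted 0, 0 and 1 times in control replicates 1 to 3, against 1, 3 and 1 times at 8 h. Every 8 h library lay above every control, but no library exceeded the 3 counts that a count of 0 still allows, equal to 0.536, 0.596 and 0.274 CPM in controls 1 to 3. Summed over libraries, 1 count gave 0.0463 CPM in controls (exact Poisson 95% interval 0.00117 to 0.258) and 5 counts gave 0.174 CPM at 8 h (0.0566 to 0.407). These overlapping intervals cover counting error only. Mcl1 was below the filter for testing, and its mean CPM lay above only 0.698% of the rows in the table. A difference in Mcl1 was not detectable with these counts.

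Bax, the cytosolic effector that moves to mitochondria (chromosome 7, 45461695 to 45466903), had the highest mean CPM of the family over the 6 libraries together, though Pmaip1 had the higher mean among controls. It was counted 22, 1214 and 463 times in control replicates 1 to 3, against 2458, 92 and 31 times at 8 h, which is 3.93, 241 and 42.2 CPM against 289, 6.93 and 4.49 CPM. Control 2 and 8 h replicate 1 were high and the lowest library of each group was below 5 CPM. The highest and lowest differed by 61.4 times among controls and 64.2 times at 8 h. Over the 7157 tested genes without a 0, the medians of that ratio were 9.51 and 9.88. The group means, 95.8 ± 127 and 99.99 ± 163 CPM (SD, n = 3 each), differed by a log2 fold change of 0.06 ± 1.80 (SE; edgeR adjusted p = 0.997). The sign rested on single libraries: the log2 fold change was -4.04 without 8 h replicate 1, 2.07 without control replicate 2, -0.52 without control replicate 1 and -0.27 without control replicate 3. With limma-voom it was -0.72.

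Bak1, the effector that resides in the mitochondrial membrane (chromosome 17, 27019812 to 27028627), was counted 46, 345 and 49 times in control replicates 1 to 3, against 329, 1625 and 136 times at 8 h. Its levels were 8.22, 68.6 and 4.47 CPM against 38.6, 122 and 19.7 CPM. Controls 1 and 3 lay below all 8 h libraries, but control 2 lay above 2 of them. The log2 fold change was 1.15 ± 1.74 (SE; edgeR adjusted p = 0.886), 3.27 without control replicate 2 and 0.13 without 8 h replicate 2.

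Among BH3-only genes, Pmaip1 (chromosome 18, 66458604 to 66465558), whose product Noxa binds Mcl-1, was counted 279, 1118 and 960 times in control replicates 1 to 3, against 386, 86 and 497 times at 8 h. Its levels were 49.9, 222 and 87.6 CPM against 45.3, 6.48 and 72.0 CPM. It was the only tested member with a lower mean at 8 h (119.9 ± 90.6 against 41.3 ± 33.0 CPM, SD, n = 3 each). Replicate 2 at 8 h stood far below the controls, replicate 1 just below control 1, and replicate 3 lay between controls 1 and 3. The log2 fold change was -1.54 ± 1.82 (SE; edgeR adjusted p = 0.842), and it ran from -2.20 (8 h replicate 3 left out) to -0.76 (control replicate 2 left out).

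Bbc3, the p53 target that encodes Puma (chromosome 7, 16308398 to 16318334), was counted 20, 41 and 45 times in control replicates 1 to 3, against 226, 67 and 8 times at 8 h. On the CPM scale the controls were close together, at 3.58, 8.15 and 4.10, and the 8 h libraries lay on both sides of them, at 26.5, 5.05 and 1.16. Highest and lowest libraries differed by 2.28 times among controls and 22.9 times at 8 h. The log2 fold change was 1.05 ± 1.65 (SE; edgeR adjusted p = 0.890) and turned to -0.73 without 8 h replicate 1.

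Bcl2l11 (chromosome 2, 128126038 to 128162547), Bid (chromosome 6, 120893119 to 120917062) and Bad (chromosome 19, 6941861 to 6951905) were below the filter, like Mcl1, with at most 15 counts in any library. Bcl2l11, whose product Bim removes T cells deprived of cytokine, was counted 0, 1 and 1 times in control replicates 1 to 3, against 1, 1 and 0 times at 8 h. Pooled, 2 counts in each group gave 0.0926 CPM (exact Poisson 95% interval 0.0112 to 0.335) and 0.0697 CPM (0.00844 to 0.252). Bid, which caspase-8 cuts to link death receptors to mitochondria, had 1, 2 and 5 counts against 3, 11 and 5. Its 3 control levels of 0.179, 0.398 and 0.456 CPM overlapped the 8 h levels of 0.352, 0.828 and 0.725 CPM.

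Bad, a BH3-only protein silenced by phosphorylation downstream of growth factors, was counted 2, 6 and 7 times in control replicates 1 to 3, against 10, 15 and 8 times at 8 h. Its 8 h levels were nearly equal, at 1.17, 1.13 and 1.16 CPM, and its control levels were 0.358, 1.19 and 0.638 CPM. Control 2 lay above all 3 of the 8 h libraries.

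**Figure D1:**
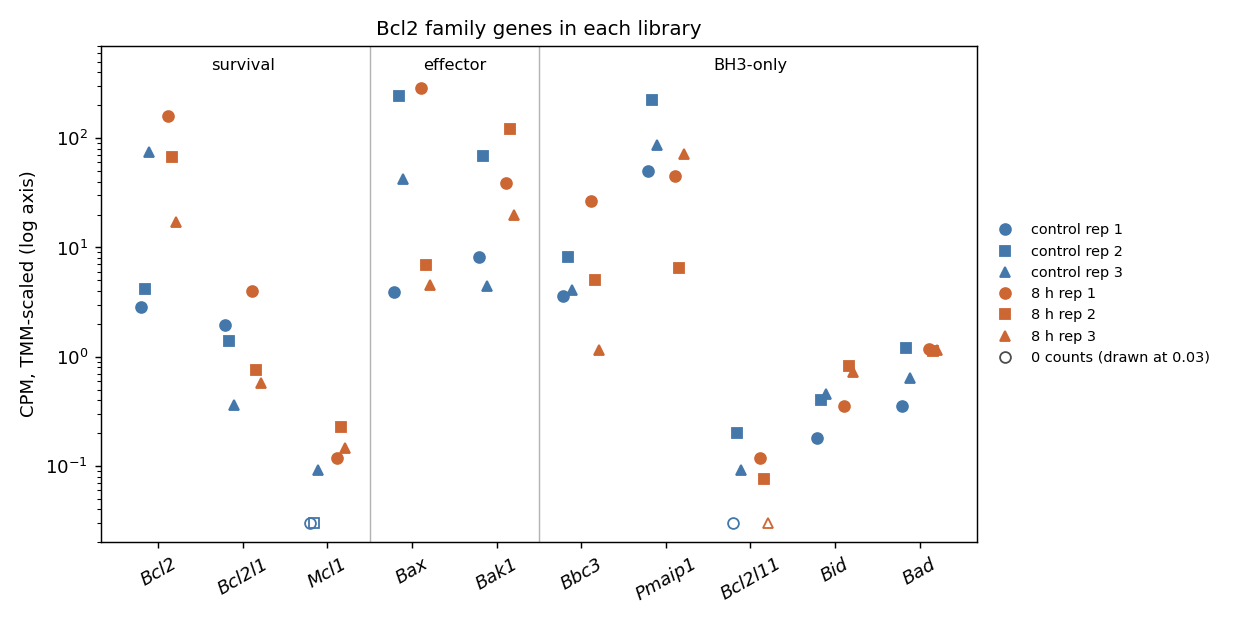
CPM (log axis) of each gene in the 3 controls (blue) and 3 libraries at 8 h (orange), grouped by role, with open symbols for 0 counts. Bax spans 3.93 to 289 CPM and Mcl1 never passes 0.226 CPM, and among the 6 tested genes no group lies wholly above the other.

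**Figure D2:**
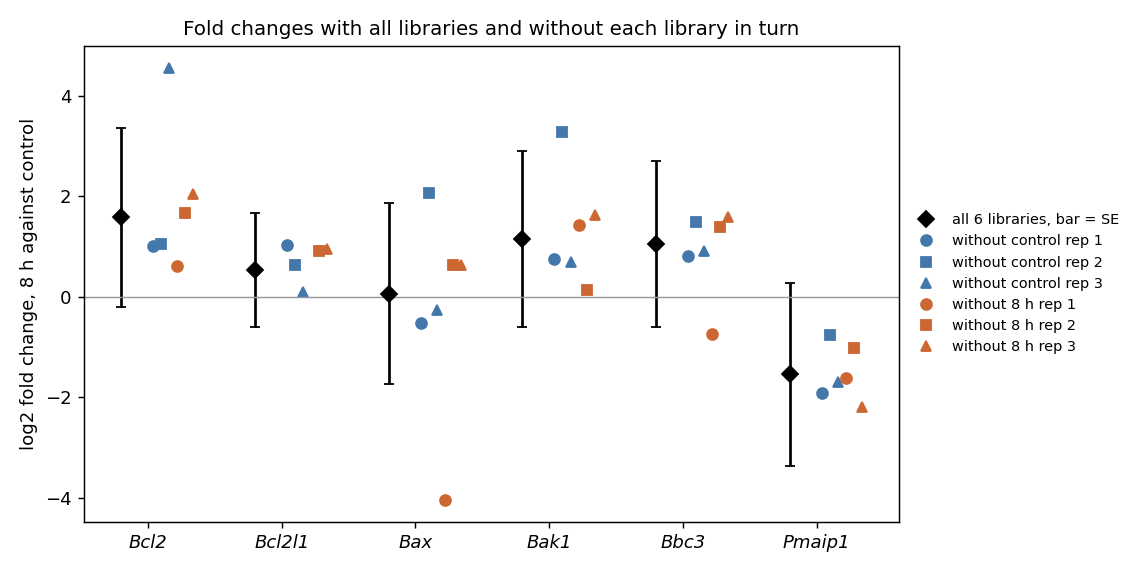
Log2 fold change of the 6 tested genes at 8 h against control with all libraries (black, bar = SE) and without each library in turn (coloured). For Bax the values run from -4.04 to 2.07 and for Bbc3 from -0.73 to 1.59, crossing 0. Those of Bcl2, Bcl2l1 and Bak1 stay above 0 and those of Pmaip1 below 0, but the SE bar of every gene crosses 0.

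Levels of different genes were compared per kilobase of the row's transcript, as CPM per kb. By the mean over the 6 libraries the order was Bax (113), Pmaip1 (29.6), Bak1 (18.3), Bcl2 (7.60), Bbc3 (4.46), Bad (0.951), Bcl2l1 (0.587), Bid (0.224), Bcl2l11 (0.0350) and Mcl1 (0.0283). The range over libraries overlapped that of the next gene at every step of this order. Bax ran from 4.54 to 333 CPM per kb, Pmaip1 from 2.37 to 81.5 and Bcl2 from 0.398 to 22.4.

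The leading gene per length differed between libraries of 1 group. Pmaip1 led in control 1 with 61.3% of the family's summed CPM per kb and in 8 h replicate 3 with 59.2%. Bax led in control 2 (70.3%), control 3 (50.5%) and 8 h replicate 1 (82.0%), and Bak1 led in 8 h replicate 2 (67.7%). Bcl2 took 1.33%, 0.147% and 10.8% in controls 1 to 3 and 5.53%, 12.4% and 5.33% at 8 h.

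**Figure D3:**
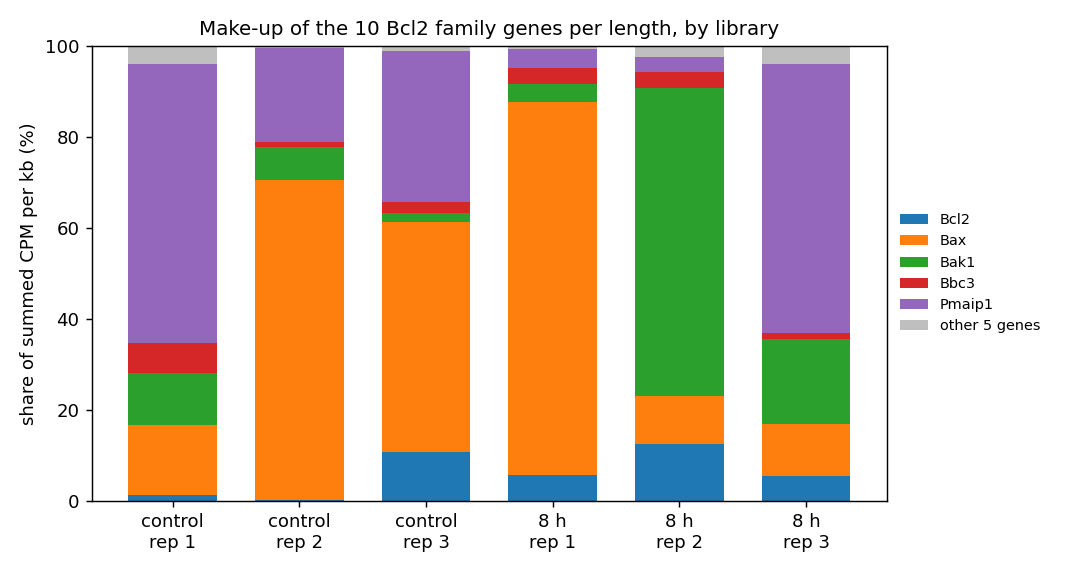
Share (%) of the summed CPM per kb of the 10 genes in each library. Bax takes 50.5% to 82.0% in 3 libraries from both groups, Bak1 takes 67.7% in 8 h replicate 2, and Pmaip1 leads in the other 2.

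Survival genes were set against death genes within each library, where scaling between libraries plays no part. Summed per kb, survival genes stood to effectors at 0.146, 0.00366 and 0.209 in controls 1 to 3 and at 0.0689, 0.165 and 0.197 at 8 h. The 8 h ratios thus lay inside the range of the controls. Survival genes stood to BH3-only genes at 0.0562, 0.0128 and 0.3001 in the controls and at 0.736, 1.45 and 0.0927 at 8 h. Replicates 1 and 2 at 8 h were above every control, and replicate 3 lay between controls 1 and 3. On the log2 scale the mean of the ratio to BH3-only genes was -4.06 ± 2.28 (SD, n = 3) for controls, against -1.11 ± 2.07 (SD, n = 3) at 8 h. That of the ratio to effectors was -4.38 ± 3.23 and -2.94 ± 0.81 (SD, n = 3 each). In controls 1 and 2 Bcl2l1 made up much of the survival sum, with 0.766 and 0.542 CPM per kb beside 0.398 and 0.581 for Bcl2, while Bcl2 made up most of it in the other 4 libraries. Without length scaling, on CPM, the log2 difference between groups in the ratio to effectors was 1.37 and turned to -0.46 without control replicate 2, while it was 2.79 without control replicate 3. No test was made on these sums.

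**Figure D4:**
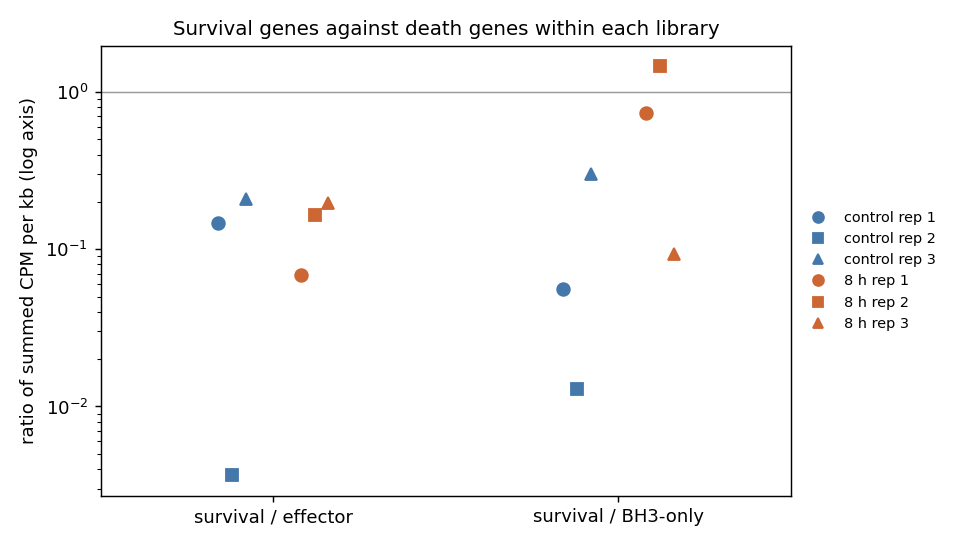
Summed CPM per kb of survival genes over that of effector genes (left) and BH3-only genes (right) in each library, on a log axis with a line at equality. Both sets of 3 overlap, with 8 h replicates 1 and 2 above the controls on the right.

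Pairs of members ranged widely in how alike their profiles were. Pearson's r of log2 CPM between pairs of tested members ran from -0.455 (Bcl2 with Pmaip1) to 0.812 (Bax with Bbc3), over 6 points that share libraries and depth. The genes most like Bax were Lenep (r = 0.999), Rilpl1 (r = 0.996) and Otud7b (r = 0.995). With 6 points, 105 tested genes had an r above 0.9 with Bax. Lenep itself was low, with 6, 31 and 32 counts among controls and 60, 18 and 8 in the 8 h libraries.

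Annotated neighbours may bear on some of these counts, since the strand setting of the counting is not given in the sources used here. Overlaps were taken between whole gene spans, introns included. Whether they reach exons, or add reads to any member, was not tested. Genes on the opposite strand overlap 4 of the 10 members in GENCODE M21: Ggnbp1 overlaps Bak1 by 9200 bases, Gpr137 meets Bad over 620 bases, Bcl2l13 meets Bid over 913 bases, and D630008O14Rik lies opposite Bcl2 over 33103 bases. Reads from bases that such a pair shares cannot be told apart without strand. On the same strand 3 members are overlapped, where strand would not separate reads: Bax by Gm45808 (915 bases), Bid by Gm44260 (2094 bases), and Bcl2 by Gm37053 (2087 bases) and Mir3473f (136 bases).

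Other genes of the apoptosis pathway and its inputs were read from 7 lists of 79 genes, of which 74 were matched and 43 were tested. The lists mix genes that promote death with genes that oppose it, so pooled counts give no direction for death. EdgeR called 0 of the 43, with 2 at an unadjusted p under 0.05 and 17 higher against 26 lower fitted values at 8 h. Their median log2 fold change was -0.27. Over all tested genes edgeR called 0%, 8.53% had an unadjusted p under 0.05, 51.3% had a log2 fold change above 0 and the median was 0.06. In 1 of the 43, Apaf1, every 8 h library lay below every control, which held for 5.08% of all tested genes. In 0 of the 43 did every 8 h library lie above every control, beside 5.72% of all tested genes. DESeq2 called 2, Casp6 and Aifm1, beside 6.06% of all genes given an adjusted p. Casp6 and Aifm1 were also the ones with an edgeR unadjusted p under 0.05. Some of the 43, such as Apaf1 and Fas, were given no DESeq2 adjusted p.

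The apoptosome acts after the mitochondria open. Its list also held genes outside it, such as Casp8 and Aifm1. Of the 9 tested genes on that list 5 had higher and 4 lower values at 8 h. Casp6, an executioner caspase, was counted 45953, 254 and 5282 times in control replicates 1 to 3, against 34, 1046 and 253 times at 8 h. Control 1 stood far above all other libraries, and the groups overlapped, as 8 h replicate 2 (78.8 CPM) lay above control 2 (50.5 CPM). On the log2 scale its fold change was -6.19 ± 2.77 (SE), for which edgeR gave an adjusted p of 0.538 and DESeq2 one of 0.0105. With control replicate 1 left out the fold change was -2.74 (edgeR adjusted p = 0.737). Aifm1, a mitochondrial flavoprotein that can be released in cell death, was counted 66, 71 and 44 times in control replicates 1 to 3, against 5046, 8118 and 54 times at 8 h. Replicate 3 at 8 h, at 7.83 CPM, lay among the controls (4.01 to 14.1 CPM). On the log2 scale its fold change was 5.34 ± 2.32 (SE), for which edgeR gave an adjusted p of 0.536 and DESeq2 one of 0.00939. Apaf1, the scaffold of the apoptosome, named for the non-overlap after its values were seen, had 1.79, 2.98 and 4.93 CPM in the controls and 1.17, 1.51 and 0.290 CPM at 8 h. Its log2 fold change was -1.68 ± 1.25 (SE; edgeR adjusted p = 0.716).

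The other Bcl2 family genes on the list split into 3 higher and 3 lower among 6 tested. Bnip3, a mitochondrial BH3-containing gene induced by low oxygen, was counted 35481, 84 and 8433 times in control replicates 1 to 3, against 486, 1362 and 1459 times at 8 h (log2 fold change -4.26 ± 2.50, SE; edgeR adjusted p = 0.633). Control 2 was the lowest of all 6 libraries, so the groups overlapped. Bcl2l13, whose gene overlaps Bid on the opposite strand, averaged 35.4 ± 21.8 against 77.7 ± 65.6 CPM (SD, n = 3 each), with 8 h replicate 1 the lowest library.

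Inputs to the family gave 0 calls as well. Of 8 tested genes on the list of p53 and FoxO inputs 2 had higher and 6 lower values, with a median log2 fold change of -1.17. Foxo1 and Foxo3 were below the filter, and the tested genes included the stress response factors Atf4 and Ddit3. The p53 targets Trp53inp1 (316 ± 495 against 42.9 ± 48.8 CPM) and Zmat3 (188 ± 163 against 26.8 ± 21.4 CPM; SD, n = 3 each) had edgeR adjusted p of 0.700 and 0.691. Of 7 tested genes of survival cytokine input 1 was higher and 6 lower. Pim2, a kinase that promotes survival, averaged 226 ± 93.1 against 63.2 ± 84.1 CPM, and Il2rg, the shared receptor chain, 9.38 ± 7.06 against 8.86 ± 5.96 CPM (SD, n = 3 each).

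Death receptors and their adaptors split into 3 higher and 3 lower of 6 tested. Fas, the death receptor of activated T cells, was counted 40, 962 and 76 times in control replicates 1 to 3, against 66, 136 and 248 times at 8 h, and Tnfrsf1a, a receptor for tumour necrosis factor, 76, 167 and 451 against 130, 1508 and 18. Among turnover and mitochondrial partners 3 were higher and 3 lower of 6. Their most abundant genes were the channels Vdac2 (1280 ± 1671 against 289.9 ± 302 CPM) and Vdac3 (605 ± 564 against 707 ± 1095 CPM; SD, n = 3 each). Of the inhibitors of apoptosis only Birc2 was tested (353.5 ± 530 against 71.7 ± 84.8 CPM, SD, n = 3 each; edgeR adjusted p = 0.770). Among the untested ones Xiap, Birc6 and Cflar had at most 8 counts in any library. Birc3 reached 14 counts in control 3 and Naip2 148 counts in control 2.

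**Figure D5:**
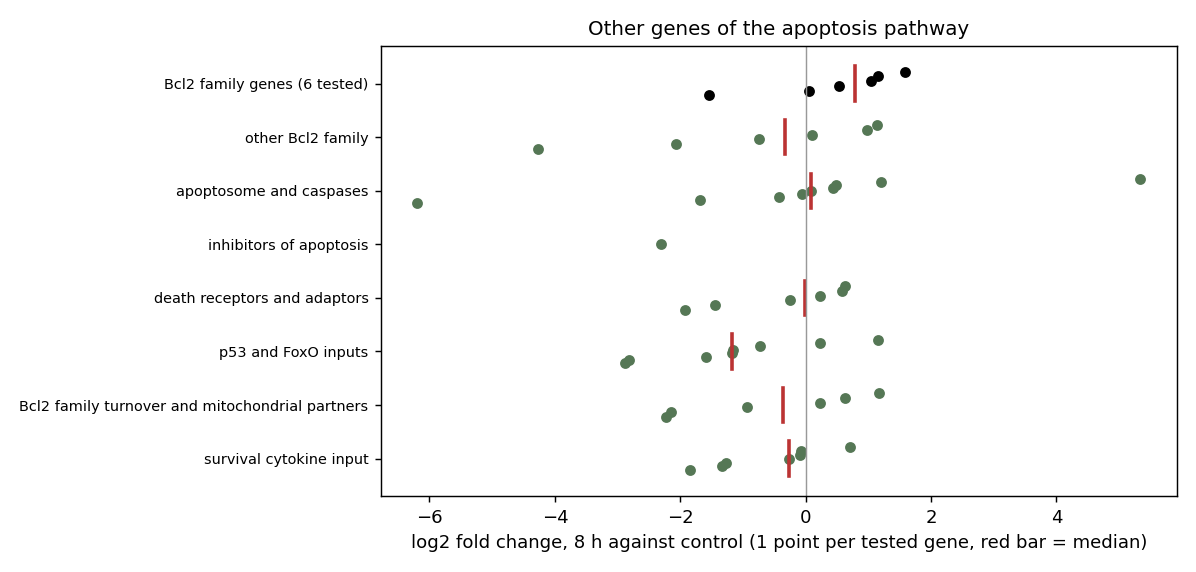
Log2 fold change at 8 h against control of every tested gene in the Bcl2 family set and the 7 lists, with a red bar at the median where more than 1 gene was tested. Points lie on both sides of 0 in each list with more than 1 tested gene, and the extremes are Casp6 (-6.19) and Aifm1 (5.34).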

How the data were processed

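RNA from 6 libraries was sequenced as single reads, per the series' design text. The authors deposited whole-number read counts per RefSeq accession, used as deposited. Bowtie, R 3.4.2 and GRCm38 are named, with no role, per the submitters' processing notes. Not given in the sources used here: the counting program, its strand setting, multi-mapping and row filters. Rows were named through RefSeq GRCm38.p6 (12827 rows) or GENCODE M21 (47), and 303 stayed unnamed. Transcript lengths and 3' untranslated regions came from GENCODE M21.

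All 13177 rows entered 1 fit with edgeR 4.0.16 in R 4.3.3 with the group as its only term: TMM scaling, filterByExpr with its minimum of 10 counts (8308 genes kept), robust quasi-likelihood F test, two-sided, Benjamini-Hochberg adjustment at 0.05. SE was taken as the size of the log2 fold change divided by the root of F. CPM use TMM-scaled library sizes. The prior count for correlations was 2. The fit was also run on simulated counts, at the fitted spread and at a smaller one, and no result here rests on that run. Tried as alternatives were DESeq2 1.42.0, upper-quartile and RLE scaling, blocking on replicate number, limma-voom (limma 3.58.1), the newer quasi-likelihood form, other filters and leaving out each library. Ratios per kb were added after seeing the data.

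The members, the 7 apoptosis lists and the 6 marker lists were chosen with earlier results of these data known. Named were all members, any called gene of a list or else its 2 most abundant tested genes, and the 3 genes most like the most abundant member. Marker lists are given as sums, and single marker genes were named for a call or after their values were seen. Reads carry no molecular identifiers, so intervals cover counting error only.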

Additional observations from a re-analysis of the deposited data

How the results depend on the processing

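The number of members called was 0 under every alternative run and without each library. The number of genes called over the whole table was 399 with DESeq2 and 0 under the others, and that of the other apoptosis genes was 2 with DESeq2 and 0 under the others. With the wide spread of these libraries, a count of 0 says nothing about stability. Among the tested members, Bcl2, Bcl2l1, Bak1 and Pmaip1 kept the sign of their log2 fold change under every alternative that gave a value. Bcl2l1 had none with a mean of at least 5 CPM or without 8 h replicate 1, where it fell below the filter. With the replicate block, Bax turned to -2.43 and Bbc3 to -0.016, and Bax was -0.72 with limma-voom. Without each library in turn Bax ran from -4.04 to 2.07 and Bbc3 from -0.73 to 1.59. Correlations of same-numbered libraries' deviations were -0.0107, 0.0151 and -0.0039, so the numbers were not taken to pair the samples. Only control 2 and 8 h replicate 2 correlated best with their own number. Adjusted p of the members ranged from 0.538 (Pmaip1, DESeq2) to 0.9998 (Bax, upper-quartile scaling) over the alternatives. The log2 difference between groups of the survival to BH3-only ratio was 3.53 on CPM and 2.95 per kb, and that of the survival to effector ratio 1.37 and 1.44. Without each library in turn, on CPM, the former ran from 2.37 to 4.91 and the latter from -0.46 (without control replicate 2) to 2.79 (without control replicate 3). Mcl1, Bcl2l11, Bid and Bad had too few counts for a test. Whether sequencing depth or the way these rows were counted set their low values was not tested.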
